A study of Mus musculus with 2 samples.

Results

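The genes described here encode 10 subunits of integrins, the adhesion receptors by which leukocytes hold on to endothelium, matrix and each other. They are Itgam, Itgax, Itgal, Itga4, Itga6, Itga9, Itgb1, Itgb2, Itgb5 and Itgb7, taken by their symbols from a matrix of 27809 genes, and all 10 had a row. Each was described by group and by class of cell, where the classes were cut from the reads of 11 other genes.

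Hearts of male mice on a C57BL/6 background, 8 weeks old, were taken 1 week after sham surgery or transverse aortic constriction (TAC), which narrows the aorta and loads the left ventricle with pressure. The groups were WT sham, CD3e-/- sham, WT TAC, CD3e-/- TAC and WT mice with TAC that were given an antibody to CD8, called here by the label CD8-depleted TAC. CD3e-/- mice carry a germline loss of the CD3 epsilon chain and lack T cells, so they miss CD4+ and CD8+ T cells alike. CD45+ cells, that is leukocytes, were enriched with magnetic beads after enzymatic digestion, tagged by group, pooled and sequenced as 1 library by TAS-Seq. This method uses BD Rhapsody cartridges, in which single cells share a microwell with a barcoded bead. Each group was 1 sample and the number of hearts behind it is not given in the sources used here, so groups were compared by their values, with no test.

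An integrin is a pair of an alpha and a beta subunit that crosses the membrane. Itgb2 encodes the beta2 chain, which only leukocytes make, and it pairs with the alpha chains of Itgal (LFA-1), Itgam (Mac-1, CD11b) and Itgax (CD11c), which bind ICAMs, complement fragments and fibrinogen. Itgb1 encodes the widespread beta1 chain, which pairs with alpha4 (VLA-4, a receptor for VCAM-1 and fibronectin), alpha6 (a laminin receptor) and alpha9 (a receptor for tenascin-C, osteopontin and others). Alpha4 also pairs with beta7, a receptor for MAdCAM-1 known from gut homing, and beta5 pairs with the alphav chain of Itgav to bind vitronectin.

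After filters on cells, 5263 cells were kept, 1000, 835, 1615, 919 and 894 in the order of groups above, with 91899777 to 208758777 reads per group. The median depth was lowest in WT sham with 75442 reads per cell and highest in CD3e-/- TAC with 117788. Levels are reads of a gene per 1000000 reads of the cells in question (CPM), summed over cells. Their 95% intervals are exact Poisson intervals and cover counting error only. Reads here are not molecules, so the true intervals are wider.

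Cells passed through gates on the CPM of single cells, in a fixed order. Monocytes and macrophages were the 3305 cells with at least 200 CPM of Csf1r and 1500 CPM of Lyz2 that did not pass a lymphoid or dendritic gate. Among them a Lyve1 gate held 203 cells, an Ace gate 269, a Ly6c2 gate 425, a Lilra5 gate 583 and a Ccr2 gate 1117, and 708 others passed none of these. Outside them were a Cd209a gate (423 cells), an Xcr1 gate (153), a Cd79a gate (464) and a Cd3g gate (122). Another 53 cells met the definitions of several lineages and 743 met none.

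Markers that had no part in the gates went with the usual reading of most of them. Among the 10 gates, 6 of 6 B cell markers were highest in the Cd79a gate, 6 of 6 T cell markers in the Cd3g gate, 6 of 6 markers of type 1 dendritic cells in the Xcr1 gate, 6 of 6 of resident macrophages in the Lyve1 gate and 6 of 6 of Ly6c-low monocytes in the Ace gate. The match was looser for type 2 dendritic cells in the Cd209a gate (4 of 6) and for Ly6c-high monocytes in the Ly6c2 gate (3 of 6), and the 5 NK cell markers were also highest in the Cd3g gate. Fibroblast markers summed to 295 CPM in the Cd209a gate. The Cd3g gate, cut before the dendritic gates, also held 375 CPM of Cd209a and 34.7 CPM of Xcr1. A gate is a range of reads and not a cell type: 741 cells lay within 1.5-fold of the Ccr2 cutoff.

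The genes aimed at by the genotype and the antibody were also read out. Cd3e was 3.73 CPM in CD3e-/- sham and 5.64 CPM in CD3e-/- TAC over all kept cells, and 10.8 to 17.8 CPM in the other groups. The Cd3g gate held 3 and 0 cells in those CD3e-/- groups, whereas WT sham hearts gave 50, WT TAC hearts 40 and the depleted TAC group 29. Cd8b1, which encodes the CD8 beta chain, was read in 10 of the 40 WT TAC cells of that gate (exact 95% interval 12.7% to 41.2%). After CD8 depletion it was read in 4 of 29 (3.89% to 31.7%), so a lower share of CD8+ cells was not detectable with this number of cells.

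The shares of the gates differed between groups, which bears on every level taken over all monocytes and macrophages. The Lilra5 gate made up 31.4% of them in WT sham, 26.8% in CD3e-/- sham, 12.9% in WT TAC, 9.19% in CD3e-/- TAC and 15.8% in CD8-depleted TAC. The Ly6c2 gate made up 3.30%, 5.15%, 11.9%, 20.8% and 20.4% in the same order. Both sham groups thus held more Lilra5 cells and fewer Ly6c2 cells than any TAC group. A gate of fewer than 20 cells in a group was given no level, which left out the Ly6c2 gate of WT sham (18 cells), the Lyve1 gate (15) and the Xcr1 gate (19) of CD3e-/- TAC, and the Cd3g gate of both CD3e-/- groups (3 and 0). Levels over all groups still include these cells.

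The partners of beta2 came first. Itgam, which marks monocytes, macrophages and type 2 dendritic cells, was highest in the Ace gate with 806 CPM over all groups and in the Ly6c2 gate with 742 CPM. It was lower in the Lilra5 gate (314 CPM) and fell to 62.0 CPM in the Xcr1 gate and 51.8 CPM in the Cd79a gate. After every cell had been thinned to 30000 reads, a read of Itgam was found in 93.3% of cells of the Ace gate. The Cd79a gate had the lowest share of the 10 gates, 6.85%. Whether these reads come from the cells themselves was not tested. The Ace and Ly6c2 gates overlapped across groups (581 to 1019 CPM and 649 to 906 CPM), so their order is not settled.

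Itgax, the CD11c chain by which dendritic cells are usually sorted, had a different order. Its level was 308 CPM in the Cd209a gate and 161 CPM in the Xcr1 gate, but also 159 CPM in the Cd3g gate. The Ccr2 gate had 145 CPM, the unassigned monocytes and macrophages 117 CPM and the Ace gate 108 CPM. The Cd3g gate also held Cd209a reads, and their part in its Itgax level was not tested. The Cd209a gate was the highest of the gates in every group, at 254 to 390 CPM, but by little in CD3e-/- sham, where it had 294 CPM and the unassigned monocytes and macrophages 288 CPM. In the Lyve1 gate it was 2.59 CPM, and no read was found in 2 of the 4 groups with enough cells there, where the upper limits were 0.553 and 1.02 CPM.

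Itgam and Itgax are neighbours on mouse chromosome 7 (GRCm38.p6), Itgam at chr7:128062640-128118491 and Itgax at chr7:128129526-128150657, both on the plus strand. Their upstream regions are shown because the genes sit side by side and yet differed in the gates in which they were high, and that of the widespread Itgb1, on chromosome 8, is shown for contrast. Capitals mark GAGGAA or, on the other strand, TTCCTC, the core that the myeloid factor PU.1 recognises. Each is the 250 bases before a transcription start in RefSeq, 5′ to 3′ on the strand of the gene.
Itgam, chr7:128062390-128062639, plus strand: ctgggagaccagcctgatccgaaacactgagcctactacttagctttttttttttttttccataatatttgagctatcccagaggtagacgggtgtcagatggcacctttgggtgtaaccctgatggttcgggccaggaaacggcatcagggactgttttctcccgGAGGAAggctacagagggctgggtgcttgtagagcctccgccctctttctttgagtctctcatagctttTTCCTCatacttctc
Itgax, chr7:128129300-128129549, plus strand: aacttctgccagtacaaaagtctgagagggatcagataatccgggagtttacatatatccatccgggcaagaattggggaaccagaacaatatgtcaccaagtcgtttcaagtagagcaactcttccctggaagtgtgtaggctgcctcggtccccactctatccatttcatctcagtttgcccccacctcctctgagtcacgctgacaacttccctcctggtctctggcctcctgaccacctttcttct
Itgb1, chr8:128685404-128685653, plus strand: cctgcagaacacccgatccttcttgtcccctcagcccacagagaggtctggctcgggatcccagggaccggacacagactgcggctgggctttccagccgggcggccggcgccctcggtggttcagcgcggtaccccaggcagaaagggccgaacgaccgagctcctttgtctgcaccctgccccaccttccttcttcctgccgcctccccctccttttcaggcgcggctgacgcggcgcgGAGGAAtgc

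The letters occurred 2 times before Itgam, 1 time on each strand, 1 time before Itgb1 and not before Itgax. They are common: 23.3% of 32851 mouse promoter windows of the same length held them on either strand. Of the 7 integrin genes with such a window (all but Itgal, Itga6 and Itgb2), the other 4, Itga4, Itga9, Itgb5 and Itgb7, had no match. A match is a run of letters and was not tested as a binding site, and the last bases of the Itgax window overlap the annotated start of that gene. The windows of Itga9 and Itgb7 lie inside the annotated genes, before a start within them.

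Itgal encodes the alpha chain of LFA-1, which T cells and patrolling monocytes use on ICAM-1. Among monocytes and macrophages its order was steep, with 547 CPM in the Ace gate, 113 CPM in the Ly6c2 gate and 14.5 to 35.0 CPM in the rest. By group, the Ace gate held 666, 612, 702, 447 and 431 CPM, so that its lowest value was above the highest value of any other gate in any group. The Cd3g gate followed with 257 CPM, at 236 to 287 CPM in the 3 groups with T cells. Reads of Itgal were found in 85.0% of thinned cells of the Ace gate, 74.6% of the Cd3g gate and 3.52% of the Lyve1 gate.

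Itgb2, the common beta chain, was high in all gates except the Cd79a gate. The Ace gate had the highest level, 879 CPM, at 720 to 988 CPM across groups. Over all groups, the other monocyte and macrophage, dendritic and T cell gates lay between 318 and 542 CPM. The Lyve1 gate had 409 CPM there, but only 231 to 318 CPM in the 4 groups with enough cells. Its pooled level is raised by the 15 cells of CD3e-/- TAC. In the Cd79a gate it was 105 CPM, with a read in 35.5% of thinned cells against 98.5% in the Ace gate.

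The second set was made of alpha4 and its beta chains. Itga4 was highest in the Ace gate (665 CPM, 565 to 792 CPM by group), and next came the Cd3g gate (520 CPM), the Cd79a gate (398 CPM) and the Ly6c2 gate (356 CPM). It was lowest in the Lilra5 gate (187 CPM) and in the unassigned cells (183 CPM), which did not differ beyond their range across groups. Itgb1 was broad: 267 to 624 CPM in 9 gates, with the Cd79a gate at 86.7 CPM the exception, where 29.4% of thinned cells had a read against 76.2% to 94.2% elsewhere.

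Itgb7 parted lymphoid and dendritic cells from macrophages. Its level was 412 CPM in the Cd3g gate, 356 CPM in the Xcr1 gate, 295 CPM in the Cd209a gate and 153 CPM in the Cd79a gate. The part of the Cd209a reads of the Cd3g gate in its Itgb7 level was not tested. Monocytes of the Ace and Ly6c2 gates had 127 and 121 CPM, and the Lyve1 and Lilra5 gates 10.5 and 6.31 CPM. The Xcr1 and Cd209a gates had reads in 95.4% and 84.6% of thinned cells, while the 7.54% and 8.78% of the Lyve1 and Lilra5 gates were the lowest. Of the other partner of beta7, Itgae (CD103, known from type 1 dendritic cells), the Xcr1 gate held 278 CPM and no other gate more than 22.6 CPM.

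The third set was high in macrophages. Itga9 was 135 CPM in the Lilra5 gate and 98.6 CPM in the Lyve1 gate, 39.3 CPM in the Ccr2 gate and no more than 12.4 CPM in the Ly6c2, Ace, dendritic and lymphoid gates. Itga6 was also highest in the Lilra5 gate (249 CPM), then in unassigned cells (231 CPM) and the Ccr2 gate (153 CPM). Itgb5, the vitronectin receptor chain, reached 311 CPM in the Lilra5 gate and 275 CPM in the Lyve1 gate and only 9.96 to 29.3 CPM in the lymphoid and dendritic gates. For Itgb5 the 6 monocyte and macrophage gates lay above the other 4 in each group, since the lowest level given for them in any group (66.5 CPM) exceeded the highest of the others (47.4 CPM).

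**Figure D1:**
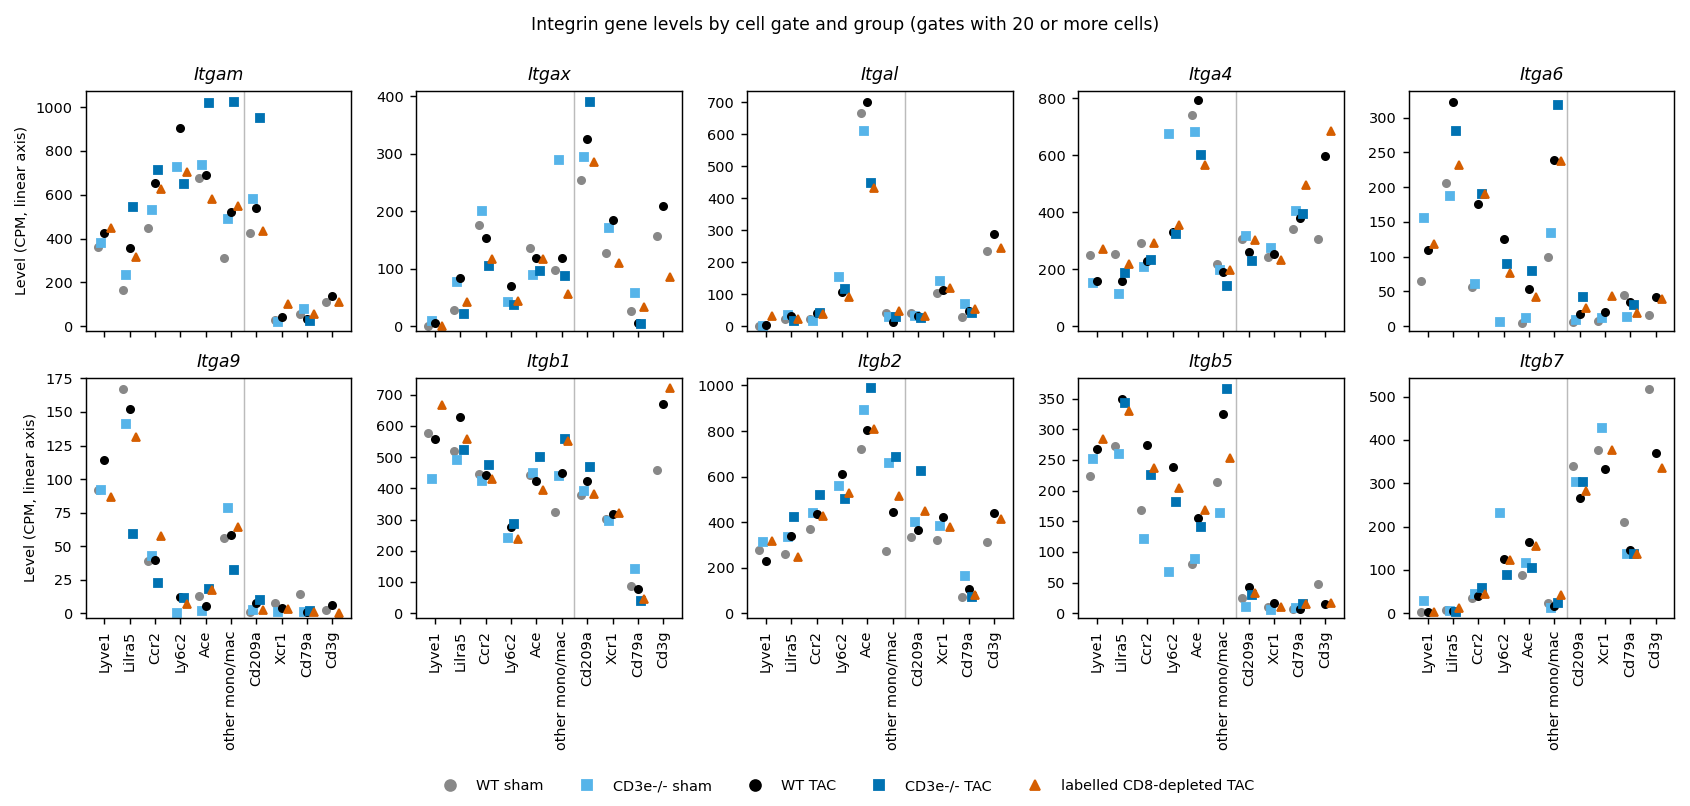
Levels of the 10 integrin genes (CPM, linear axis, 1 panel a gene with its own scale) in the 10 gates, with 1 point for each of the 5 groups that had 20 or more cells in a gate; the grey line separates monocytes and macrophages (left) from dendritic and lymphoid gates. Itgal stands out in the Ace gate (431 to 702 CPM), Itgb7 in the dendritic and Cd3g gates, and Itga9 and Itgb5 in macrophages.

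Within macrophages and monocytes, the Lyve1 gate was set against the Ly6c2 gate in the 3 groups with at least 20 cells in both. Those groups were CD3e-/- sham, WT TAC and CD8-depleted TAC. Of the 10 genes, 4 were past 2-fold the same way in all 3 groups, while 8.65% of 6344 genes were. Itga9 was higher in the Lyve1 gate, with log2 ratios of 3.35, 2.48 and 2.51. Itgax (-1.45, -2.38 and -2.43), Itgal (-4.02, -3.03 and -1.28) and Itgb7 (-2.71, -3.51 and -3.35) were lower there. Itga4 had -2.09, -1.01 and -0.38, which does not reach the limit in the third. The gates come from the same cells, so this is a description of 2 ranges of cells, and the share over all genes is set by the same gates.

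Whether the 2 chains of a known pair were read in the same cells was looked at after thinning. Itgam and Itgb2 were both found in 2210 of 3190 monocytes and macrophages (69.3%, Clopper-Pearson 95% interval 67.6% to 70.9%), in 91.8% of the Ace gate and in 5.08% of the Cd79a gate. Itgax and Itgb2 were found together in 70.7% of the Cd209a gate and 1.01% of the Lyve1 gate, and Itgal and Itgb2 in 84.6% of the Ace gate and 3.52% of the Lyve1 gate. Itgb2 itself was read in 78.9% of the cells of the Lyve1 gate, so the shares of these pairs there followed the alpha chain.

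For alpha4 the beta chain was the variable one. Itga4 and Itgb1 were read together in 53.4% to 86.9% of cells of each monocyte, macrophage and dendritic gate. Itga4 and Itgb7 were read together in 83.7% of the Xcr1 gate, 72.1% of the Cd209a gate, 66.4% of the Cd3g gate and 56.2% of the Ace gate, but in 4.52% and 5.73% of the Lyve1 and Lilra5 gates. Itga4 and Itgb1 were together in 81.7% of the Xcr1 gate and 61.5% of the Cd3g gate, slightly below the shares with Itgb7 and with intervals that overlap them. In the Cd79a gate the share with Itgb7 was higher and the intervals did not overlap: Itga4 and Itgb7 were together in 34.5% (29.8% to 39.4%) and Itga4 and Itgb1 in 22.3% (18.3% to 26.8%) of 394 cells. Itga9 and Itgb1 were together in 47.0% of the Lilra5 gate and in 4.28% of the Ly6c2 gate. A cell without a read may still carry the transcript, and reads of free RNA can fall on cells that do not.

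**Figure D2:**
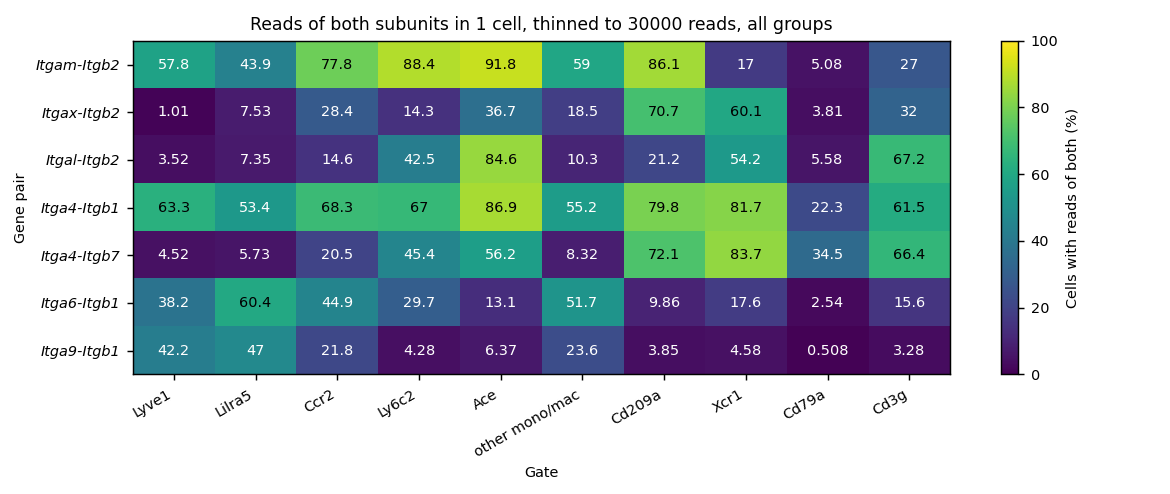
Share of cells (%, colour and number) with at least 1 read of both genes of a pair, after thinning to 30000 reads per cell, for 7 known integrin pairs (rows) in 10 gates (columns), all groups pooled. Itgam with Itgb2 is spread over monocytes, macrophages and the Cd209a gate, Itgal with Itgb2 peaks in the Ace gate at 84.6%, and Itga4 with Itgb7 peaks in the Xcr1 gate at 83.7%.

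The first question between groups was what pressure overload went with in WT hearts. Over all monocytes and macrophages, Itgam was 362 CPM in WT sham (95% interval 357 to 368) and 620 CPM in WT TAC (616 to 625), a log2 ratio of 0.76 with 10 CPM added to both. Itga6 was 98.6 CPM (95.8 to 101) and 186 CPM (183 to 188), a log2 ratio of 0.85. These 2 of the 10 genes were past 1.5-fold, both higher after TAC, while 6.56% of the 7025 genes with at least 20 CPM were past it either way. The median log2 ratio was 0.40 over the 10 genes and 0.03 over all genes tested. The other ratios lay between -0.53 for Itga9 (79.8 and 52.2 CPM) and 0.49 for Itgb7 (33.0 and 50.5 CPM).

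The same comparison in CD3e-/- hearts, which shares no group with the first, put 5 of the 10 genes past 1.5-fold, where 8.91% of 6957 genes were. Itgam was 487 CPM in sham and 820 CPM in TAC (log2 0.74), Itga6 97.1 and 182 CPM (0.84), and Itgb5 158 and 247 CPM (0.61). Itga9 was 65.2 and 27.5 CPM (-1.0) and Itgax 161 and 74.96 CPM (-1.01). Itgam and Itga6 were thus past 1.5-fold in the same direction in both genotypes. Itgax went the other way in WT hearts, at 90.6 CPM in sham and 118 CPM in TAC.

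**Figure D3:**
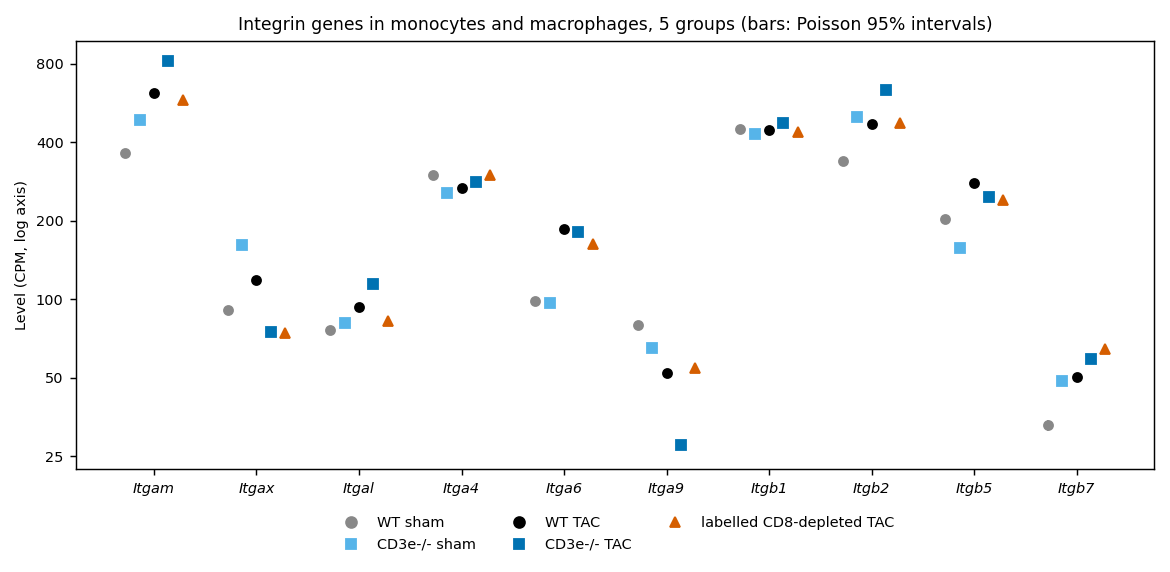
Levels of the 10 genes in all monocytes and macrophages (CPM, log axis) in the 5 groups, with exact Poisson 95% intervals, most of which are smaller than the symbols. Both sham groups lie below the 3 TAC groups for Itgam, Itga6 and Itgb5 and above them for Itga9, while the Itgb1 points lie between 430 and 475 CPM. The share of all genes with such an order was not counted.

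The CD8-depleted TAC group can be laid beside these, although it has no sham group of its own. It had 579 CPM of Itgam, 163 CPM of Itga6 and 240 CPM of Itgb5, each above both sham groups. For Itga9, the TAC groups had 52.2, 27.5 and 54.7 CPM, all below the sham groups. The share of all genes that part the 2 sham from the 3 TAC groups was not counted, here or within gates. These orders are therefore not read as a trait of integrins. Genes of the response to tissue dissociation also parted the sham from the TAC groups and were lower after TAC. Summed over 9 immediate early and heat shock genes, they had 15421 and 13703 CPM in the sham groups and 7610, 6758 and 7673 CPM in the TAC groups. Their part in these differences was not tested. Without the cells above the upper quartile of those genes, the log2 ratio of Itgam was 0.73 in WT and that of Itga6 stayed past 1.5-fold in both genotypes, and Itgb5 in CD3e-/- hearts was 0.83. The call of Itgb5 was less steady than those of Itga6: over 10 other settings its log2 ratio ran from 0.43 to 0.83, and in 4 of them it was under 1.5-fold.

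Since the gates shift after TAC, the genes were next read within each gate. Itga6 was higher after TAC in 5 of 5 gates of monocytes and macrophages in WT hearts and in 5 of 5 in CD3e-/- hearts, where a gate needed 20 cells in both groups. In the Ccr2 gate it was 56.8 CPM in WT sham, 61.2 CPM in CD3e-/- sham, 175 CPM in WT TAC, 190 CPM in CD3e-/- TAC and 189 CPM in CD8-depleted TAC. Every TAC value was above both sham values. The share of thinned Ccr2 gate cells with an Itga6 read was 21.4% (14.6% to 29.6%) in WT sham. In CD3e-/- sham it was 30.2% (23.0% to 38.3%). It was 58.0% (53.1% to 62.8%) in WT TAC and 56.9% (49.9% to 63.7%) in CD3e-/- TAC. In CD8-depleted TAC it was 50.3% (42.8% to 57.8%). These intervals treat single cells as the unit and leave out the spread between hearts, so they do not test sham against TAC.

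The Ace gate, where Itga6 is low, gave the same order. Its level was 4.07 and 11.8 CPM in the sham groups and 54.0, 79.0 and 41.7 CPM in the TAC groups. In the Lilra5 gate, where Itga6 is highest, the step was smaller: 205 and 188 CPM in the sham groups and 323, 280 and 231 CPM after TAC. Outside macrophages the Cd209a gate had 6.09 and 8.08 CPM in the sham groups and 17.2, 42.0 and 26.1 CPM in the TAC groups. In the Cd79a gate no such order was seen (44.1 and 13.2 CPM against 34.0, 30.6 and 18.2 CPM).

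Itgb5 followed Itga6. It was higher after TAC in 5 of 5 gates in each genotype, with log2 ratios between 0.25 and 0.89 in WT and between 0.39 and 1.32 in CD3e-/- hearts. In the Ccr2 gate it was 169 and 121 CPM in the sham groups and 274, 225 and 237 CPM in the TAC groups, and the share of thinned cells with a read was 49.2% and 51.0% against 76.7%, 75.4% and 73.5%. In the Ace gate the levels were 79.6 and 88.4 CPM against 156, 140 and 169 CPM. In both gates every TAC group was above both sham groups.

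Itgam was higher after TAC in 5 of 5 gates in WT and in 4 of 5 in CD3e-/- hearts, but by unequal steps. The Lilra5 gate showed the largest: 165 CPM in WT sham, 232 CPM in CD3e-/- sham, 359 CPM in WT TAC, 545 CPM in CD3e-/- TAC and 317 CPM in CD8-depleted TAC. The share of its thinned cells with a read was 34.4% and 50.9% in the sham groups and 66.7%, 71.2% and 61.8% in the TAC groups. In the Ace gate, where Itgam is high in any case, WT sham had 678 CPM and WT TAC 692 CPM, and in the Ly6c2 gate CD3e-/- sham had 729 CPM and CD3e-/- TAC 649 CPM.

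Itga9 moved both ways in the gates. In WT hearts it was higher after TAC in 3 of 5 gates and lower in 2, none past 1.5-fold, and in CD3e-/- hearts it was lower past 1.5-fold in 3 of 5 gates and higher past it in 2. In the Lilra5 gate of the WT groups it was 167 CPM in sham and 152 CPM in TAC, and in CD8-depleted TAC 131 CPM. CD3e-/- sham had 141 CPM and CD3e-/- TAC 58.9 CPM, the lowest of the 5 groups. The share of thinned cells with a read differed less, at 42.4% (29.6% to 55.9%) in CD3e-/- TAC against 45.4% to 53.6% in the other groups, with intervals that overlap. In the Ccr2 gate the values were 38.9, 43.0, 39.9, 22.5 and 57.7 CPM, again lowest in CD3e-/- TAC. The 2 gates in which it was higher in CD3e-/- TAC have little Itga9: the Ace gate had 1.41 CPM in CD3e-/- sham and 18.2 CPM in CD3e-/- TAC, and the Ly6c2 gate had no read in 23 cells (upper bound 1.15 CPM) and 11.4 CPM.

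**Figure D4:**
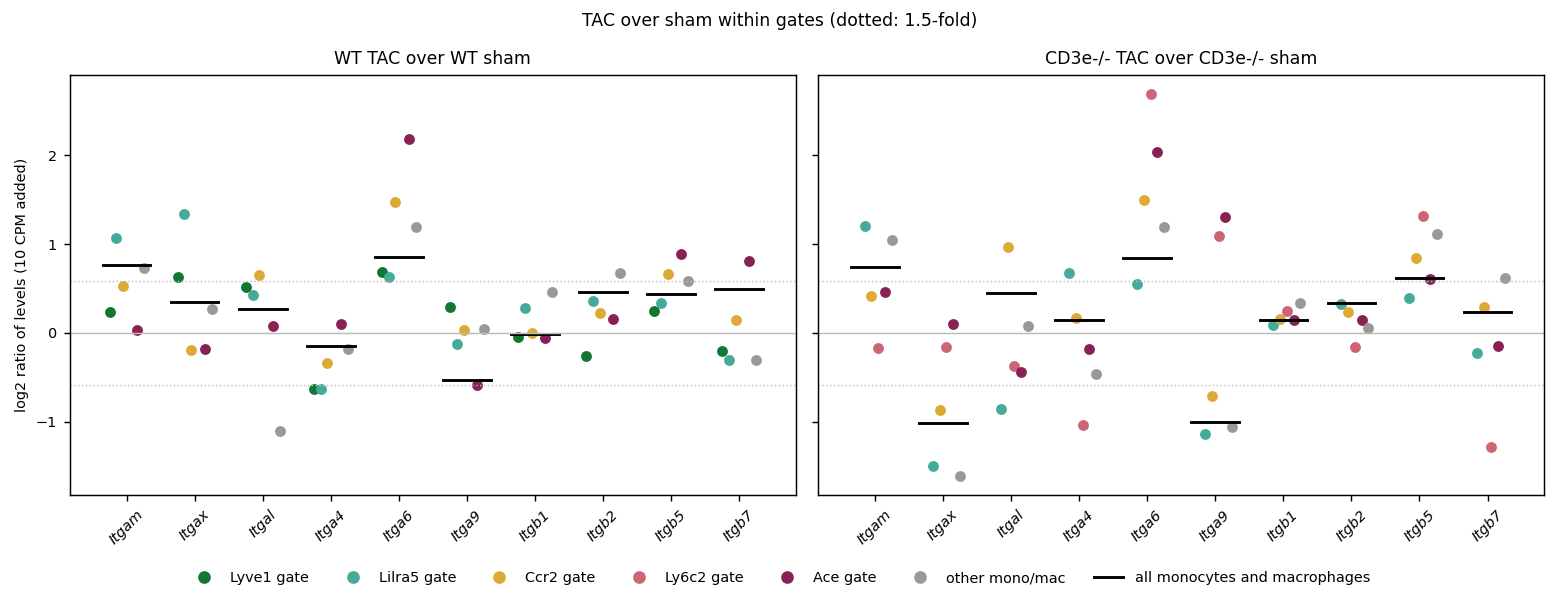
Log2 ratios of TAC over sham (10 CPM added) for the 10 genes, with 1 coloured point for each gate of monocytes and macrophages that had 20 or more cells in both groups (no Ly6c2 gate in WT, no Lyve1 gate in CD3e-/-) and a black bar for all of them together. All points of Itga6 and Itgb5 lie above 0 in both genotypes, while those of Itgax lie on both sides of it.

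The next comparison asked what the loss of CD3e went with in unstressed hearts. Itgax was past 1.5-fold as the only one of the 10 genes, at 161 CPM in CD3e-/- sham and 90.6 CPM in WT sham (log2 0.77), while 3.40% of 6946 genes were past it. Itgb2 was 499 and 340 CPM (0.54) and Itgam 487 and 362 CPM (0.42), and both were higher in CD3e-/- sham in 5 of 5 gates. Itga4 was lower in 5 of 5 gates, from -1.09 in the Lilra5 gate (113 and 251 CPM) to -0.12 in the Ace gate (681 and 739 CPM). Fibroblast markers summed to 70.7 CPM in the monocytes and macrophages of CD3e-/- sham and to 2.65 to 7.84 CPM in the other groups, and markers of eosinophils and mast cells to 85.5 CPM in WT TAC and 11.2 to 22.5 CPM in the others. Their part in these values was not tested.

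After TAC, 2 of the 10 genes differed by more than 1.5-fold between the genotypes, both lower in CD3e-/- hearts, and 1.69% of 6914 genes did. They were Itga9 (27.5 CPM in CD3e-/- TAC, 52.2 CPM in WT TAC, log2 -0.73) and Itgax (74.96 and 118 CPM, log2 -0.59). Itgax was lower in 5 of 5 gates, from -1.61 in the Lilra5 gate (21.0 and 84.4 CPM) to -0.28 in the Ace gate (96.4 and 119 CPM). Itgam was 820 and 620 CPM (0.40) and Itgb2 632 and 471 CPM (0.42), which is under the limit. With the antibody to CD8, only Itgax was past 1.5-fold against WT TAC (74.4 and 118 CPM, log2 -0.60), as were 0.753% of 6909 genes. It was lower in 6 of 6 gates, and the other 9 ratios lay between -0.21 and 0.30. These comparisons share the WT TAC group with each other and with the first one, so a high or low value there would show in all of them.

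Few cells carry most Itgax reads. The tenth of monocytes and macrophages with the most reads of it held 72.2% to 89.5% of them in each group, and only 688 of 3305 cells had any. Cells with at least 500 CPM of Mmp12, which number 34, 65, 44, 22 and 14 in the groups, had 442 CPM of Itgax. They held 60.1% of the Itgax reads of CD3e-/- sham and 12.6% of those of CD8-depleted TAC. Without them the groups had 64.9, 83.5, 85.3, 58.8 and 67.2 CPM, and none of the 4 Itgax differences named above was past 1.5-fold. Without the 5% of cells with the most reads the groups had 84.9, 89.6, 90.4, 77.9 and 69.9 CPM. The share of thinned cells with an Itgax read was 15.7%, 22.0%, 21.9%, 24.1% and 18.7%, against 1.61% to 7.55% in the Cd79a gate, and does not show the fall in level of CD3e-/- TAC.

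A small set of cells also bears on Itgam in CD3e-/- TAC. The 33 monocytes and macrophages with at least 100 CPM of Prg4 or 2000 CPM of Saa3, of which 22 are from CD3e-/- TAC, had 2205 CPM of Itgam, 1184 CPM of Itgb2, 424 CPM of Itga6 and 3.48 CPM of Itgax. They were deep cells, with a median of 238355 reads, and held 21.5% of the Itgam reads of that group. Without them Itgam was 361, 487, 618, 698 and 544 CPM. CD3e-/- TAC was still the highest group, but its log2 ratio over CD3e-/- sham was 0.51 and no longer past 1.5-fold. The unassigned cells of that group, at 1025 CPM of Itgam, and its Ace gate, at 1019 CPM, are to be read with this in mind.

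Over all CD45+ cells a change also reflects which cells are present, and fewer cells of a type and less RNA per cell cannot be told apart. The difference in the mean CPM per cell was therefore parted by arithmetic into the shares of the gates and the levels within them. A change in which cells make up a gate counts as a change in the levels within it. For Itgam the difference between WT TAC and WT sham was 235 CPM, of which 84.4 went with gate shares and 151 with levels within gates. For Itga6 it was 60.2 CPM, with -6.31 from shares and 66.5 from levels, and for Itgb5 67.0 CPM, with 10.1 and 56.8. In CD3e-/- hearts the parts were 86.2 and 167 CPM for Itgam, -1.04 and 78.3 CPM for Itga6, and 8.66 and 78.9 CPM for Itgb5. Itgal was the opposite case: 25.04 CPM in WT, with 20.6 from shares and 4.402 from levels, and 42.3 CPM in CD3e-/- hearts, with 38.6 and 3.67. The Ace gate, which is high in Itgal, made up 2.60% of the kept cells in WT sham, 4.89% in WT TAC, 4.31% in CD3e-/- sham and 8.92% in CD3e-/- TAC.

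**Figure D5:**
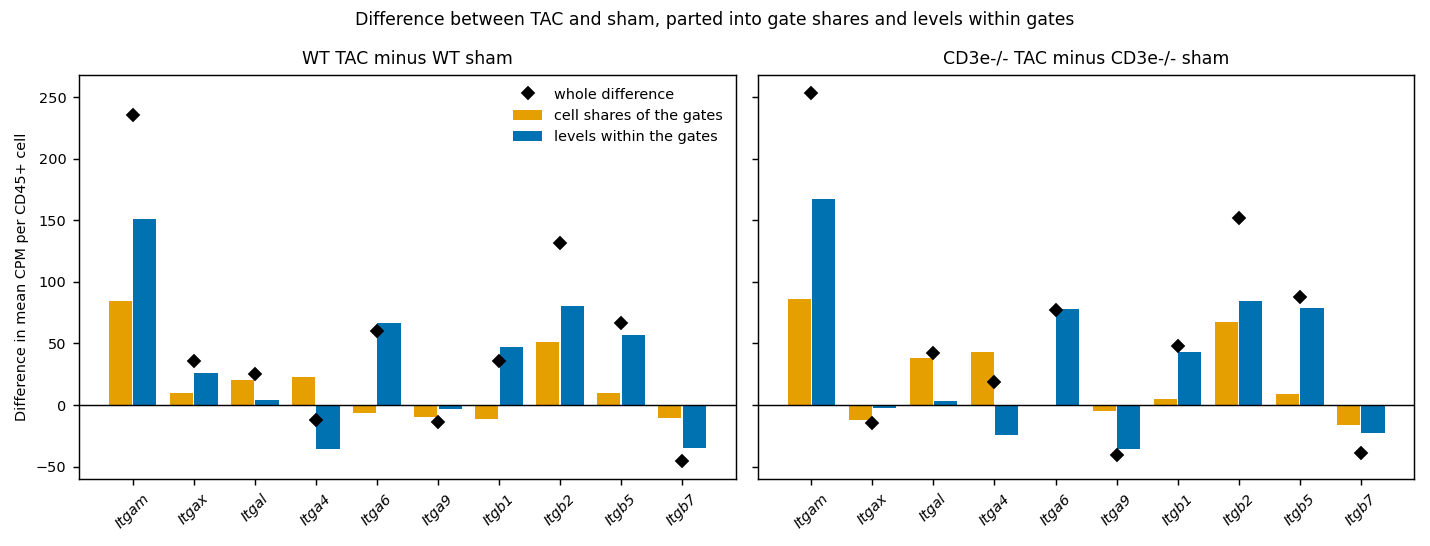
Difference between TAC and sham in mean CPM per CD45+ cell (diamonds) in WT (left) and CD3e-/- hearts (right), parted into cell shares of the gates (orange bars) and levels within the gates (blue bars). Most of the difference in Itga6 and Itgb5 lies in the levels within gates and most of that in Itgal in the shares. A change in which cells make up a gate counts as levels.

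Itgb7 fell over all CD45+ cells, while its level pooled over all monocytes and macrophages did not fall. Within the gates of monocytes and macrophages it moved both ways: each genotype had 3 of 5 gates lower after TAC and 2 higher. The lowest log2 ratio was -0.31 for WT and -1.29 for CD3e-/- hearts, and the highest 0.81 and 0.61. Its level in all CD45+ cells was 159 CPM in WT sham, 141 CPM in CD3e-/- sham, 117 CPM in WT TAC, 89.6 CPM in CD3e-/- TAC and 121 CPM in CD8-depleted TAC. The difference in the mean per cell was -45.0 CPM in WT, with -10.2 from shares and -34.8 from levels. The parting takes in the cells that met no gate, 17.5% of the kept cells in WT sham and 13.2% in WT TAC. Markers of eosinophils and mast cells summed to 6245 CPM in them. Over all CD45+ cells these markers summed to 2550 CPM in WT sham and 308 CPM in WT TAC. The part of such cells in the Itgb7 difference was not tested. Itgb7 was lower in WT TAC than in WT sham in each of the 4 dendritic and lymphoid gates: 369 and 518 CPM in the Cd3g gate, 266 and 340 CPM in the Cd209a gate, 333 and 376 CPM in the Xcr1 gate, and 147 and 211 CPM in the Cd79a gate. None of these was past 1.5-fold. In CD3e-/- hearts the Cd209a gate had 304 CPM in both groups and the Cd79a gate 136 CPM in both. The difference in the mean per cell there was -38.7 CPM, with -15.8 from shares and -22.9 from levels.

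The Cd3g gate, which holds the T cells, moved in its alpha4 chains as well. Itga4 was 305 CPM in WT sham, 596 CPM in WT TAC and 686 CPM in CD8-depleted TAC, with 50, 40 and 29 cells. Itgb1 was 460, 671 and 720 CPM. The log2 ratio of WT TAC over WT sham was 0.94 for Itga4, 0.54 for Itgb1 and -0.48 for Itgb7. The share of thinned cells with an Itga4 read was 64.0% (49.2% to 77.1%), 82.5% (67.2% to 92.7%) and 89.7% (72.6% to 97.8%), with intervals that overlap. The gate also holds NK cell markers, which summed to 174 CPM, and 375 CPM of Cd209a, and its makeup was not tested.

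Genes that work with integrins were read from lists of other subunits, activators, signalling genes and ligands. Of 16 other integrin subunits with a row, 2 reached 20 CPM in monocytes and macrophages, Itga5 and Itgav. Itga5, the fibronectin receptor chain, had 61.2 CPM in WT sham and 106 CPM in WT TAC (log2 0.71, past 1.5-fold). Itgav, the partner of beta5, had 67.1 and 87.6 CPM (log2 0.34). In CD3e-/- hearts both were under 1.5-fold, Itga5 with 69.6 CPM in sham and 99.6 CPM in TAC (log2 0.46) and Itgav with 54.8 and 76.2 CPM (0.41). Of 20 activators and adaptors measured, such as talin, kindlin-3 and Rap1, none was past 1.5-fold in WT TAC over WT sham, where the share over all genes is 6.56%. Their median log2 ratio was 0.15, that of all genes 0.03. In CD3e-/- hearts 2 of the 20 were past it, where the share over all genes is 8.91%: Rasgrp2, which activates Rap1, was higher after TAC (49.7 and 28.3 CPM) and Vcl, which encodes vinculin, lower (33.1 and 57.0 CPM). Of 11 signalling genes measured, Fgr, a Src family kinase of myeloid cells, was the 1 gene past it in each genotype (146 and 92.9 CPM in WT, 205 and 128 CPM in CD3e-/-), so that neither list stands far from the share over all genes.

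The last list held ligands and partners of integrins that the monocytes and macrophages express themselves. It was chosen with earlier results of these data known, so its counts are not read as a trait of integrin ligands. In WT hearts 4 of 13 measured genes were past 1.5-fold, against 6.56% of all genes: Thbs1, encoding thrombospondin-1 (409 CPM in TAC and 98.5 CPM in sham), and Fn1, encoding fibronectin (1319 and 829 CPM), were higher, and Spp1, encoding osteopontin (661 and 1161 CPM), and Cd81, encoding a tetraspanin (309 and 649 CPM), were lower. In CD3e-/- hearts 6 of 14 were, against 8.91% of all genes, with Thbs1 (375 and 137 CPM), Fn1 (2212 and 915 CPM), F11r, which encodes a ligand of LFA-1 (92.1 and 49.8 CPM), Icam2 (32.0 and 14.9 CPM) and Cd63 (301 and 192 CPM) higher and Cd81 (244 and 588 CPM) lower. Spp1 went the other way in CD3e-/- hearts, at 717 CPM in TAC and 519 CPM in sham (log2 0.46, under the fold). Its level in WT sham was the highest of the 5 groups. Between the genotypes after TAC 2 of 14 were past 1.5-fold, against 1.69% of all genes: Fn1 (log2 0.74) and Icam2 (0.70) were higher in CD3e-/- hearts. Between the sham groups, of 13 measured, 1 was higher (Plaur) and 2 lower (Spp1 and Cd63) in CD3e-/- hearts, against 3.40% of all genes. In CD8-depleted TAC over WT TAC 0 of 13 were past it, against 0.753%.

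Finally, the genes whose levels ran most like each member were sought over 45 combinations of gate and group, among 10994 genes, by Pearson's r of log2 levels. The units share 1 library and the gates, so r is a description. Itga9 ran with Slco2b1 (0.96), Pf4 (0.94) and Col14a1 (0.93), Itgb5 with C5ar1 (0.96), Trem2 (0.96) and Apoe (0.96), and Itga6 with Ms4a14 (0.90), Ms4a7 (0.87) and Tmem119 (0.87). Itgam ran with Gm49368 (0.96), Pilra (0.95) and Lilrb4a (0.94), Itgb7 with Gm9844 (0.93), and the closest genes of Itgax and Itgal were Bcl2a1d (0.85) and Mbp (0.85). Among the members, Itga6, Itga9 and Itgb5 ran together (0.79 to 0.81), Itgal ran with Itga4 (0.78) and Itgam with Itgb2 (0.70), and Itga9 and Itgb7 ran against each other (-0.92).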

How the data were processed

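The authors made the values with their TAS-Seq pipeline, for which the submitters' processing notes name cutadapt 2.10, Bowtie2 2.4.2 and the GRCm38 genome, and deposited raw counts (reads per gene and cell, after error correction, not molecules and without normalization). The group of each cell was taken from its hashtag by the notes deposited with the matrix. Of 5363 columns, 48 were not used (40 doublets called by the authors and 8 without a hashtag). No further doublet caller was run, and 53 cells that met several lineages' gates were set aside. No cell barcode was shared between groups.

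Cells with at least 500 genes and a mitochondrial share of at most 0.4 were kept. Gate cutoffs were, in CPM of the cell and in this order, Cd79a 500, Cd3g 50, Xcr1 50, Cd209a 100, then with Csf1r 200 and Lyz2 1500: Lyve1 100 with Ly6c2 under 500, Ace 50, Ly6c2 500, Lilra5 50 with Ccr2 under 1000, and Ccr2 1000. Ratios are log2 of summed CPM with 10 CPM added, and a gene entered a comparison with at least 20 CPM in either group. To compare how many cells had a read, 30000 reads were drawn from each cell, which left out 288 shallower cells (65, 57, 73, 57 and 36 by group). No p-value or other test was computed, since a group is 1 sample. The steps ran in Python 3.11.15 (scipy 1.17.1, numpy 2.4.6, matplotlib 3.10.9, pandas 2.3.3) and were tested on simulated data.

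The genes, lists, gates and markers were chosen with earlier results of these data known. The named genes are the 10 members, genes of the listed pathways past the fold and the 3 genes most like a member. The second library of the series holds the hashtags of the same cells and entered through the deposited assignment of cells to groups. Coordinates and upstream sequences are from RefSeq on GRCm38.p6. Other settings were tried in 7 ways fixed at the start (cutoffs of the gates halved or doubled, the mean over cells, thinned cells, stricter filters on cells, the deepest 5% of cells left out, 1 CPM added) and in 3 ways chosen after the data were seen (without cells high in Prg4 or Saa3, without cells high in Mmp12, without the cells above the upper quartile of dissociation genes).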

Additional observations from a re-analysis of the deposited data

Results flagged for a closer look

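Itgax in monocytes and macrophages went opposite ways after TAC in the 2 genotypes. The log2 ratio of TAC over sham was 0.35 in WT hearts and -1.01 in CD3e-/- hearts, so that they differ by 1.36, and with 1 sample per group the difference was not tested. Of the 4 levels, CD3e-/- sham had the highest, 161 CPM, and 60.1% of its reads came from 65 cells high in Mmp12. Without those cells in any group the levels were 64.9 and 85.3 CPM in WT sham and TAC and 83.5 and 58.8 CPM in CD3e-/- sham and TAC.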

How the results depend on the processing

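Over 10 other settings, the 10 genes and the 6 comparisons gave 570 further values, of which 308 stayed within the counting interval of the main value (for the 2 gates, within the spread over groups). The sign turned in 26 of the 570 values, which belong to 12 ratios of Itgal, Itga6, Itga9, Itgb1 and Itgb2. None of the 12 was past 1.5-fold, and the largest of them was 0.27, for Itgal in WT TAC over WT sham, which went to -0.03 without the cells high in dissociation genes. All 11 calls past 1.5-fold between groups kept their direction under each setting, and 5 stayed past it under each: Itgam and Itga6 in WT TAC over WT sham, Itga6 and Itga9 in CD3e-/- TAC over CD3e-/- sham, and Itga9 in CD3e-/- TAC over WT TAC. The counts of genes past the fold moved as follows. For WT TAC over WT sham the count was 2, and 4 with the mean over cells and with 1 CPM added. For CD3e-/- TAC over CD3e-/- sham it was 5, and 2 without the deepest 5% of cells, 3 without cells high in Mmp12, 4 with the mean over cells, with thinned cells and without cells high in Prg4 or Saa3, and 6 without the cells high in dissociation genes. Itgb5 in that comparison, at 0.61, was past the fold in 6 of the 10 settings and as low as 0.43 with the mean over cells. It was under the fold with thinned cells, without the deepest 5% and without cells high in Mmp12 as well. For CD3e-/- sham over WT sham it was 1, and 0 with the mean over cells, with thinned cells, without the deepest 5% of cells and without cells high in Mmp12, and 3 without the cells high in dissociation genes. For CD3e-/- TAC over WT TAC it was 2, and 1 with the cutoffs of the gates halved, with the cutoffs doubled, with the mean over cells, with thinned cells, without the deepest 5%, without cells high in Prg4 or Saa3 and without cells high in Mmp12. For CD8-depleted TAC over WT TAC it was 1, and 0 with the mean over cells, with thinned cells, without the deepest 5% and without cells high in Mmp12. For the Lyve1 gate over the Ly6c2 gate it was 3 to 5 under the 7 settings run. Itgax is the gene behind most of these changes: its log2 ratio in CD3e-/- TAC over sham went from -1.01 to -0.18 without the deepest 5% of cells, and in CD3e-/- sham over WT sham from 0.77 to 0.07, while the cause was not tested. No paired analysis was possible because each group is 1 sample. The intervals cover counting error only, and with 1 sample per group the spread between hearts is unknown.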
